A study of Mus musculus with 2 samples.

Results

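The cells described here are intraepithelial-type T lymphocytes of the mouse proximal small intestine whose counts held Cd8a without Cd8b1 and a constant gene of the αβ T cell receptor (TCR), called CD8αα cells below. They were chosen by their own counts: at least 500 genes, under 25% mitochondrial transcripts, at least 1 transcript each of Ptprc (CD45), of the CD3 genes Cd3d, Cd3e or Cd3g, of the αβ TCR constant genes Trac, Trbc1 or Trbc2, and of Cd8a. They had no transcript of Cd8b1, the CD8 β chain, of Trdc, the TCR δ constant gene, of Cd4 or of Kit, and under 3 transcripts of the cell-cycle genes Top2a, Mki67, Ube2c, Cdk1 and Birc5 together. These gates kept 922 cells, 658 from control replicate 1 and 264 from control replicate 2, of 11862 barcodes that passed the gene and mitochondrial limits and of 16451 barcodes in all. They made up 9.24% (exact binomial 95% interval 8.58% to 9.94%) of kept barcodes in replicate 1 and 5.57% (4.93% to 6.26%) in replicate 2. These intervals, like the others below, cover counting error only.

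Both libraries were controls labelled C57BL/6, replicate 1 titled M1 Control and replicate 2 titled M3 Control, with no other allele or agent in the labels. Whatever differs between those controls cannot be told apart from the library. The series concerns knockdown of the M1 and M3 muscarinic receptors, and its single-cell suspensions came from control mice. Proximal small intestine was held in 20 mM EDTA for 60 min, its fragments then in TrypLE for 10 min, and the combined villus and crypt fractions went into 3' single-cell libraries that count each captured RNA by a unique molecular identifier (UMI); the labels name no step that enriched lymphocytes. Values are given for replicate 1 and then replicate 2. A level in CPM is a gene's UMIs summed over the cells of a class in a library, scaled to a common total; it is not scaled by gene length. Separate animals are not named for the 2 libraries, so each p-value reflects only how much the ratio of classes varied between them, and that variation may be technical.

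Intraepithelial lymphocytes lie between the cells of the gut epithelium. Natural intraepithelial lymphocytes leave the thymus after selection by strong self-recognition, carry an αβ or a γδ TCR together with CD8αα, and are known in the mouse for NK-type receptors and for the adaptors FcεRIγ and DAP12, while they lack CD5, CD2, Thy1 and CD28. Induced ones descend from ordinary CD4 or CD8αβ T cells that entered the epithelium after meeting antigen. CD8αα binds the thymus leukaemia antigen on enterocytes, and the integrin αE, encoded by Itgae, binds E-cadherin there. The comparisons below set CD8αα cells against CD8αβ cells, which passed the same gates but had at least 1 Cd8b1 UMI, and against γδ cells. The γδ cells had at least 1 Trdc UMI and no Trac UMI, with no gate on Trbc1 or Trbc2. They met the other gates of the CD8αα cells, among them at least 1 Cd8a UMI and no Cd8b1, Cd4 or Kit. CD4 T cells, with Cd4 and without Cd8a or Trdc, numbered 29 and 16 and are given as levels only.

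Fcer1g was higher and Cd5 lower in CD8αα than in CD8αβ cells. The 250 bases before their RefSeq starts on GRCm38.p6 are shown because these genes stand for the opposite directions of that comparison. Fcer1g lies on the minus strand of chromosome 1, with this stretch at chr1:171234350-171234599, and Cd5 on the minus strand of chromosome 19, with this stretch at chr19:10738975-10739224. In the GRCm38 gene coordinates used here Fcer1g reaches 171234365 and Cd5 reaches 10739002, so each stretch overlaps the edge of its gene. Capitals mark AGGAAG or its reverse complement CTTCCT, the core bound by ETS factors.
Fcer1g: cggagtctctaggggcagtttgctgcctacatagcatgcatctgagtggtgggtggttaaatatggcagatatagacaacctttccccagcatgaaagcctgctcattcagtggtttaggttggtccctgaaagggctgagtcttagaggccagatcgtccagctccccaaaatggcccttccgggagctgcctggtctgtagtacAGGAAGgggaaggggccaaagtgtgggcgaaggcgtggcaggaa
Cd5: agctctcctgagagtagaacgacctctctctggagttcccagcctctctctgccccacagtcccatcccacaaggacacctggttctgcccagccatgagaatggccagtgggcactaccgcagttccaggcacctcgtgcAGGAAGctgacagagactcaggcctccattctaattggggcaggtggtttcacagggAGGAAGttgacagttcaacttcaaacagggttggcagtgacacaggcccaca
The Fcer1g stretch held 1 match and the Cd5 stretch 2 matches, while 29.5% of 32851 promoter stretches of this length held at least 1. The RUNX core TGTGGT, searched on both strands, had no match in either, and 14.0% of all stretches held it. These matches describe letters only.

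The label was checked against the genes that define it, which the gates used and which are therefore a description. Cd8a stood at 1293 and 1067 CPM in CD8αα cells, against 818 and 626 CPM in CD8αβ cells and 956 and 752 CPM in γδ cells. Cd3e stood at 1307 and 1168 CPM in CD8αα cells, and Trbc2, an αβ TCR β constant gene, at 1555 and 1051 CPM. The αβ constant genes did not separate αβ from γδ cells in these files: Trbc2 also had a UMI in 70.4% and 59.8% of γδ cells, and 70.3% and 56.2% of all Trdc-positive cells that met the other γδ gates, 535 and 420 cells, had a Trac UMI. Conversely, the γ constant genes were read in most CD8αα cells: Tcrg-C2 in 76.0% and 71.2%, and Tcrg-C4 in 78.6% and 68.9%. Of the 922 cells only 33 had a Trac UMI and no UMI of Tcrg-C1, Tcrg-C2 or Tcrg-C4. Transcripts of these constant genes do not show which receptor chains a cell carries.

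Depth bears on the gates, because a cell with Cd8b1 or Trdc RNA can give no UMI of it. CD8αα cells had a median of 5608.5 and 4184 UMIs, CD8αβ cells 5167 and 6260.5, and γδ cells 4221 and 4153.5. When every cell was thinned to 2000 UMIs, Cd8b1 was still read in 80.0% and 76.4% of CD8αβ cells, and Trdc in 88.7% and 78.1% of γδ cells. At that depth 15 of 145 (10.3%) and 20 of 110 (18.2%) CD8αβ cells met all gates of the CD8αα cells, as did 6 of 133 (4.51%) and 15 of 155 (9.68%) γδ cells. Thinning alone thus put cells of both other classes among the CD8αα cells, and shallow CD8αα cells may include cells of either.

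Among the 1382 and 781 cells that passed every gate but those on Cd8b1 and Trdc, the share of CD8αα cells was lower at greater depth in replicate 2. From the shallowest through the middle to the deepest cells, in groups of near equal number, it was 51.0%, 42.1% and 49.8% in replicate 1, and 55.9%, 24.6% and 20.8% in replicate 2. The share with a Trdc UMI in replicate 2 ran the other way, at 34.5%, 55.0% and 66.2%. In the CD8αα cells themselves Cd5, a gene of CD8αβ and CD4 T cells, was at 26.3, 5.53 and 3.79 CPM over these groups in replicate 1 and at 52.8, 10.4 and 1.67 CPM in replicate 2. Fcer1g was lowest in the shallowest cells, at 1489, 2447 and 2142 CPM and at 732, 1752 and 1431 CPM. Ikzf2 was highest in the shallowest cells, at 2235, 1470 and 1271 CPM and at 2332, 1757 and 1166 CPM. Tcrg-C1 was at 192, 148 and 88.2 CPM and at 264, 250 and 272 CPM. The part of class mixing in these values was not tested. The difference in share between the libraries has no replicate check.

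**Figure D1:**
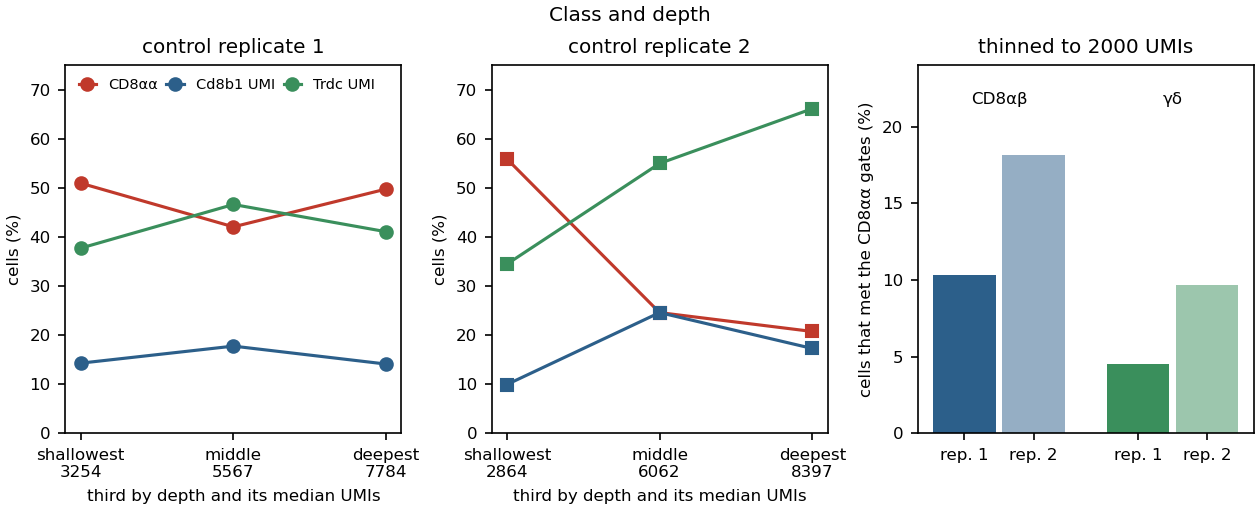
The left and middle panels plot, for each library, the percentage of cells in each depth group that were CD8αα cells or had a UMI of Cd8b1 or Trdc, over the group's median UMIs; the right panel plots the percentage of CD8αβ and γδ cells that met the CD8αα gates once thinned to 2000 UMIs. In replicate 2 the CD8αα share was 55.9% in the shallowest and 20.8% in the deepest group, and in replicate 1 it lay between 42.1% and 51.0%.

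Cells next to a gate are described without a test. The 23 and 23 cells with exactly 1 Cd8b1 UMI had Fcer1g at 1201 and 77.8 CPM and Thy1 at 83.5 and 33.3 CPM, and those with 2 or more Cd8b1 UMIs had Fcer1g at 143 and 43.0 CPM and Thy1 at 239 and 209.9 CPM. The 68 and 52 cells with exactly 1 Trdc UMI had Fcer1g at 1689 and 1308 CPM and Tcrg-C1 at 448 and 584 CPM. Just inside the Cd8a gate, the 83 and 60 CD8αα cells with a single Cd8a UMI were shallow, with medians of 2516 and 2147.5 UMIs, and had Fcer1g at 839.5 and 383 CPM. The 125 and 99 cells without Cd8a that met the other gates had Fcer1g at 901 and 239 CPM.

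RNA of other cell kinds was read in each class, in amounts that differed by class and library. Only 98 and 10 CD8αα cells had no UMI of 7 other-lineage genes. The 16 epithelial markers summed to 8023 and 8583 CPM in CD8αα cells, against 3894 and 19950 CPM in CD8αβ cells and 5556 and 5004 CPM in γδ cells. Much of this lay in few barcodes: 2 and 2 CD8αα cells exceeded 20000 UMIs, the largest at 163680 and 111921 UMIs with 9.39% and 7.69% epithelial-marker UMIs, while the median CD8αα cell had 0.128% and 0.137%. A CD8αβ cell of replicate 2 had 250869 UMIs. That cell held 26.7% of its class sum. No doublet caller was run here, and counts of called genes without cells over 20000 UMIs are given beside several of the lists. Erythroid markers summed to 881 and 3094 CPM in CD8αα cells, 10835 and 1117 CPM in CD8αβ cells and 31899 and 27580 CPM in γδ cells. Of 8 B or plasma markers 5 and 6 had a UMI in CD8αα cells (141 and 149 CPM summed), of 5 mast markers 3 and 4 (3.35 and 35.5 CPM), of 9 innate lymphoid markers 4 and 5, and of 11 myeloid markers 11 and 8 (542 and 355 CPM, of which Itgax gave 58.8 and 80.4 CPM). Lymphocyte RNA was also read in epithelial barcodes: Gzma had a UMI in 56.8% and 60.0% of epithelial barcodes without Ptprc or CD3 (median 4621 and 5621 UMIs), at 94.5 and 111 CPM, and Fcer1g in 7.13% and 8.16%, at 7.70 and 8.76 CPM. The libraries shared 17 barcodes, none of them a CD8αα cell in both, and 2 CD8αα cells were on such barcodes.

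Against CD8αβ cells, CD8αα cells were high in natural-lymphocyte adaptors and NK-type receptors and low in the surface and signalling genes of ordinary T cells. Of 9438 genes tested, 181 (1.92%) were higher and 97 (1.03%) lower in CD8αα cells, 2.95% in all (edgeR quasi-likelihood test on class sums with library as a block, Benjamini-Hochberg adjusted p under 0.05). Of 11 tested genes of the natural-lymphocyte list 8 rose, none fell, and the median log2 fold change was 2.25. Without cells over 20000 UMIs 9 rose and 1, Cd160, fell. In that setting 641 of all 8902 tested genes were higher and 519 lower. Each list count against CD8αβ cells without those cells is to be read beside these larger totals. Of 12 tested genes of the conventional T cell list 11 fell, none rose, and the median was -3.41; 6 fell without the library block, and 2 fell in cells under 10% mitochondrial UMIs, at a median of -3.40. The median over all tested genes was -0.02. Without the library block 70 genes were higher and 33 lower, and under 10% mitochondrial UMIs 64 of 9277 were higher and 13 lower. With a Trac UMI required of the CD8αα cells, 21 genes were higher and 3 lower; then 3 natural-lymphocyte genes rose and no conventional gene was called, at medians of 2.32 and -3.35, and the cause was not tested.

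Among the adaptors and receptors of natural lymphocytes, Fcer1g, the FcεRIγ chain that couples receptors to ITAM signalling, stood at 2112 and 1319 CPM in CD8αα cells, against 261 and 56.3 CPM in CD8αβ cells (log2 fold change 3.68 ± 0.35 SE, adjusted p = 0.00184). Tyrobp, the DAP12 adaptor, stood at 1220.1 and 773 CPM in CD8αα cells, against 221 and 51.0 CPM in CD8αβ cells (3.09 ± 0.34, adjusted p = 0.00302). Ikzf2, the transcription factor Helios found in agonist-selected T cells, stood at 1497 and 1666 CPM in CD8αα cells, against 193 and 244 CPM in CD8αβ cells (2.80 ± 0.21, adjusted p = 0.000811). Both libraries of CD8αα cells lay above both of CD8αβ cells for each of these genes. The share of all tested genes that separate in this way is not given here, so the separation is a description. Il2rb, the β chain shared by the IL-2 and IL-15 receptors, rose at 397 and 307 CPM in CD8αα cells, against 102 and 61.6 CPM in CD8αβ cells, and Cd200r1, an inhibitory receptor, at 479 and 491 CPM, against 84.0 and 113 CPM. Cd244a, the SLAM-family receptor 2B4, rose less, at 490.0 and 534 CPM in CD8αα cells, against 202 and 205 CPM in CD8αβ cells (1.27 ± 0.21, adjusted p = 0.0171). Lat2, a linker of the LAT family, and Klre1 completed the 8 genes. Cd160, a receptor for HVEM, was at 254 and 262 CPM in CD8αα cells, against 505 and 254 CPM in CD8αβ cells, and did not pass (adjusted p = 0.478); it fell without cells over 20000 UMIs (-0.68 ± 0.18, adjusted p = 0.00186), with cells thinned to 2000 UMIs, with 2 or more Cd8b1 UMIs and under 1% epithelial UMIs.

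Genes of NK-type receptors rose as well. Klre1, an NK-cell lectin-like receptor that pairs with other chains of that family, stood at 255 and 230.4 CPM in CD8αα cells, against 10.5 and 11.7 CPM in CD8αβ cells (4.37 ± 0.28, adjusted p = 0.000739). Klrd1, the CD94 chain, stood at 1842 and 1159.9 CPM in CD8αα cells, against 306 and 148 CPM in CD8αβ cells (2.72 ± 0.21, adjusted p = 0.000811). Klra5 and Klra6 rose too, Klra6 from the Ly49 family at 61.6 and 87.7 CPM in CD8αα cells, against 1.17 and 1.06 CPM in CD8αβ cells. Klra3 had 142 UMIs in CD8αα cells and none in CD8αβ cells, at least 20.9-fold higher against a floor of 3 counts over the group. The Ly49 genes are near copies of each other on chromosome 6, so the split of reads among them is uncertain. Sh2d1b1, the adaptor EAT-2 of SLAM receptors, stood at 89.2 and 67.4 CPM in CD8αα cells, against 4.67 and 2.13 CPM in CD8αβ cells. Of 6 tested genes of the NK-receptor list 3 rose and none fell (median 2.44), and Klrk1, Klrc1 and Ncr1 were at 6.52 CPM or less in CD8αα cells.

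**Figure D2:**
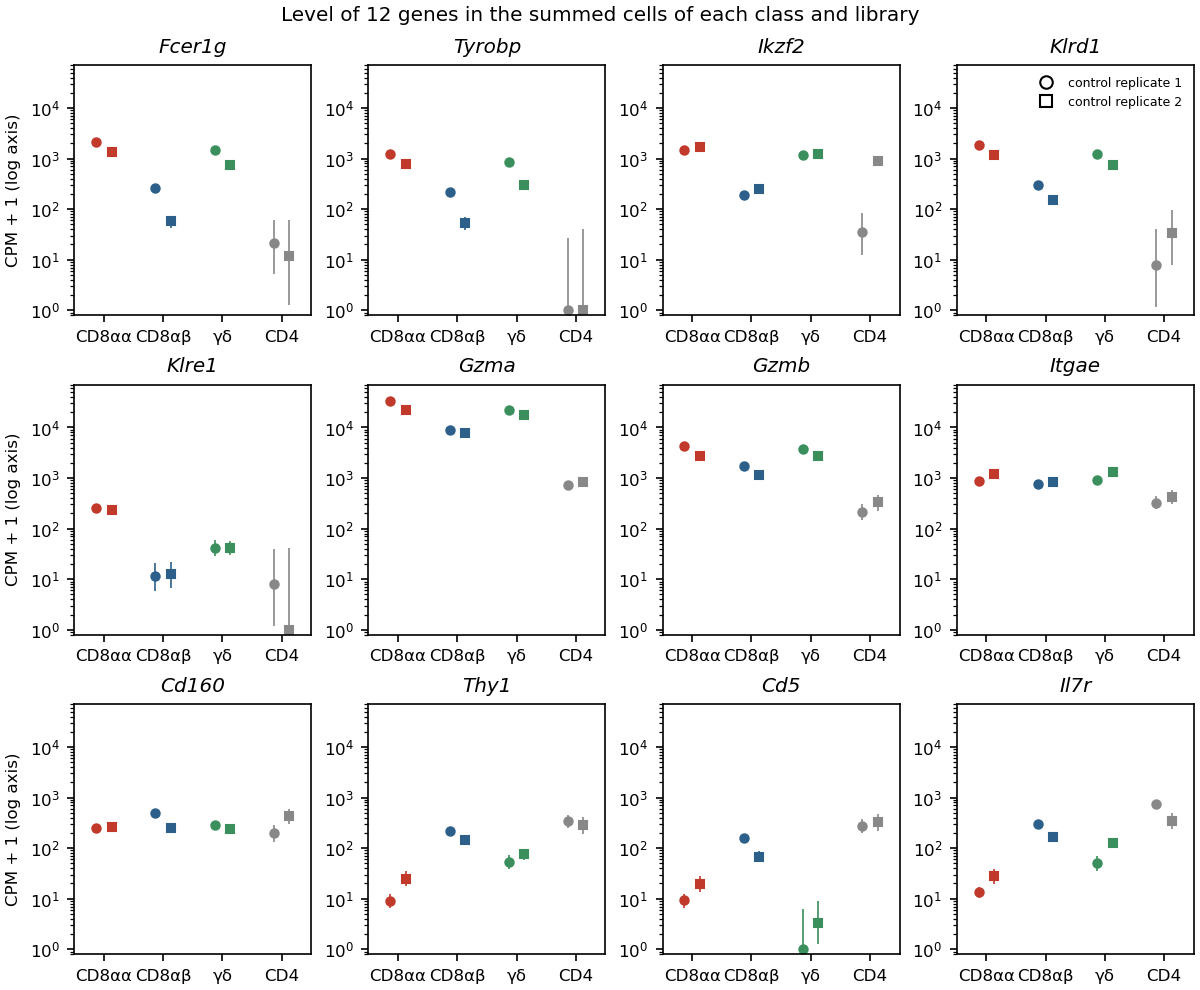
Level of 12 genes, as CPM + 1 on a log axis, in the summed cells of CD8αα, CD8αβ, γδ and CD4 T cells; circles are control replicate 1, squares control replicate 2, and bars are exact Poisson 95% intervals, which cover counting error only. Fcer1g, Tyrobp, Ikzf2, Klrd1 and Klre1 are higher in both libraries of CD8αα cells than in CD8αβ cells, Thy1, Cd5 and Il7r are lower, and Itgae passed the test against neither CD8αβ nor γδ cells.

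The receptors and adaptors of conventional T cells fell together. Cd5, an inhibitory receptor of the TCR, was at 8.25 and 18.8 CPM in CD8αα cells, against 155 and 66.9 CPM in CD8αβ cells (-3.19 ± 0.50, adjusted p = 0.0134). Thy1 was at 7.99 and 23.9 CPM in CD8αα cells, against 222 and 142 CPM in CD8αβ cells (-3.77 ± 0.46, adjusted p = 0.00387). Cd6, a receptor related to CD5, was at 10.8 and 36.9 CPM in CD8αα cells, against 287 and 201 CPM in CD8αβ cells. Replicate 2 of the CD8αα cells, the shallower of its libraries, was above replicate 1 for each of these genes. Cd28, the main costimulatory receptor, was at 0.516 and 1.45 CPM in CD8αα cells, against 43.2 and 9.56 CPM in CD8αβ cells. Cd2, Icos, Ms4a4b and Cd226 fell as well, with Ms4a4b at 26.0 and 26.1 CPM in CD8αα cells, against 692 and 275 CPM in CD8αβ cells. Il7r, the IL-7 receptor α chain that naive and memory T cells need, was at 12.4 and 26.8 CPM in CD8αα cells, against 306 and 162 CPM in CD8αβ cells (-3.73 ± 0.43, adjusted p = 0.00351).

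Transcription factors moved both ways. Of 20 tested, 2 rose, 5 fell and the median log2 fold change was 0.07; without cells over 20000 UMIs 4 rose and 5 fell. Those that fell were Tcf7, Lef1, Bcl11b, Id3 and Satb1, factors of T cell development and of naive and memory cells. Tcf7 was at 7.74 and 11.6 CPM in CD8αα cells, against 89.9 and 56.3 CPM in CD8αβ cells (-3.04 ± 0.36, adjusted p = 0.00351). Bcl11b, needed for T cell commitment, was at 106 and 167 CPM in CD8αα cells, against 440.0 and 355 CPM in CD8αβ cells (-1.64 ± 0.27, adjusted p = 0.0156). Tox, a factor induced by TCR signals, rose at 1293 and 1319 CPM in CD8αα cells, against 627 and 557 CPM in CD8αβ cells (1.08 ± 0.19, adjusted p = 0.0228), as did the orphan receptor Nr4a2. Runx3 and Tbx21, which shape cytotoxic lymphocytes in the gut, were at 462 and 731 CPM and at 115.0 and 115 CPM in CD8αα cells and passed in neither direction.

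Genes of TCR signalling and of its restraint moved both ways, with 5 of 22 higher and 4 lower (median 0.25), or 9 higher and 5 lower without cells over 20000 UMIs. The latter setting called 641 higher and 519 lower of all 8902 tested genes. The genes that rose were Cd7, Ptpn6, Sla2, Txk and Ubash3b. Ptpn6, the phosphatase SHP-1, stood at 276 and 190.5 CPM in CD8αα cells, against 111 and 56.3 CPM in CD8αβ cells (1.46 ± 0.23, adjusted p = 0.0127). Cd7, an immunoglobulin-family receptor of T and NK cells, stood at 2440.5 and 1933 CPM in CD8αα cells, against 799 and 521 CPM in CD8αβ cells (1.69 ± 0.18, adjusted p = 0.00302). Lat, the scaffold that ZAP-70 phosphorylates, was lower, at 96.5 and 92.0 CPM in CD8αα cells, against 398 and 285 CPM in CD8αβ cells (-1.90 ± 0.22, adjusted p = 0.00351). Cd52, Sh2d1a and Ubash3a were the others that fell, and Lck and Zap70 did not pass. Of 13 checkpoint and costimulation genes 3 rose and 2 fell (median 0.56), or 7 and 2 of 12 without cells over 20000 UMIs. Lag3, an inhibitory receptor for MHC class II, stood at 158 and 156 CPM in CD8αα cells, against 30.3 and 12.8 CPM in CD8αβ cells (2.85 ± 0.32, adjusted p = 0.00323). Entpd1, the ectonucleotidase CD39, and Tnfrsf9, the costimulatory receptor 4-1BB, rose, while Btla and Ctla4 fell.

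Gzma, Ccl5 and Gzmb were among the most abundant transcripts of CD8αα cells. Gzma, the protease granzyme A, had the highest mean CPM in them once mitochondrial and most ribosomal protein genes were set aside. It stood at 32934 and 22416 CPM, against 9022 and 7658 CPM in CD8αβ cells (1.65 ± 0.11, adjusted p = 0.000739). Gzmb, granzyme B, stood at 4361 and 2769.7 CPM in CD8αα cells, against 1696 and 1151 CPM in CD8αβ cells (1.25 ± 0.16, adjusted p = 0.00479). Gzmk, granzyme K of memory-type CD8 T cells, was lower, at 47.5 and 25.4 CPM in CD8αα cells, against 138 and 71.2 CPM in CD8αβ cells. These were the genes called among 12 tested cytotoxic genes (median 0.38); Prf1, perforin, stood at 87.9 and 63.8 CPM in CD8αα cells and did not pass. Of 18 cytokine and cytokine-receptor genes 3 rose and 1 fell (median 0.09), or 5 and 3 without cells over 20000 UMIs. Ccl5, the chemokine RANTES, rose by a small amount, at 22312 and 15409 CPM in CD8αα cells, against 14482 and 11121 CPM in CD8αβ cells (0.49 ± 0.10, adjusted p = 0.0428). Fgl2, a prothrombinase and secreted suppressor, and Il12rb2 also rose, and Ifng was at 12.4 and 20.3 CPM in CD8αα cells.

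Calls among the homing genes depended on the setting. Itgae was at 881 and 1193 CPM in CD8αα cells, against 750.5 and 829 CPM in CD8αβ cells, and did not pass (0.32 ± 0.19, adjusted p = 0.600). Of 16 homing genes none rose and 5 fell (median -0.42). Without cells over 20000 UMIs 9 of 17 fell and 1 rose, Itga1, a collagen-binding integrin chain (0.66 ± 0.21, adjusted p = 0.0138), while 2 fell with DESeq2, 1 without the library block, and none in cells under 10% mitochondrial UMIs or with a Trac UMI required. The 5 genes that fell were Cxcr3, Itga4, Itgal, Itgb1 and Klf2, which serve entry from blood and recirculation. Itgal, the LFA-1 α chain, was at 14.7 and 18.1 CPM in CD8αα cells, against 146 and 56.3 CPM in CD8αβ cells (-2.65 ± 0.39, adjusted p = 0.0103). The 6 markers of naive or circulating cells summed to 12.1 and 18.1 CPM in CD8αα cells, against 161 and 107 CPM in CD8αβ cells. Among 14 interferon-response genes 2 fell, Ifi27l2a and Ly6a, and none rose (median -0.59); 7 fell without cells over 20000 UMIs or under 1% epithelial UMIs, and 5 with 2 or more Cd8b1 UMIs. Over all tested genes 519 of 8902 fell without cells over 20000 UMIs and 387 under 1% epithelial UMIs. With 2 or more Cd8b1 UMIs 261 of 9146 fell. Among 14 immediate early and heat shock genes 1 fell, Fosb, and none rose (median -0.11).

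Beyond the lists, the genes furthest apart included some not usually named for lymphocytes. Frmd5, a FERM-domain protein, stood at 459.6 and 372 CPM in CD8αα cells, against 15.2 and 11.7 CPM in CD8αβ cells (4.89 ± 0.27, adjusted p = 0.000551). Gm156 stood at 215 and 174 CPM in CD8αα cells, against 18.7 and 1.06 CPM in CD8αβ cells (4.38 ± 0.51, adjusted p = 0.00351). Map2, a microtubule protein of neurons, stood at 32.2 and 42.7 CPM in CD8αα cells, against 0 and 1.06 CPM in CD8αβ cells. Trf, transferrin, Rnf180, a ubiquitin ligase, and Cubn, the receptor cubilin, were the other genes among the 10 highest. On the other side stood Gm8369, Gm2682, BE692007, Pde11a, Pard3b, Kcnn4, Ly6a and Mecom, beside Cd28 and Ms4a4b. Kcnn4, the calcium-activated potassium channel of activated T cells, was at 2.58 and 5.07 CPM in CD8αα cells, against 60.7 and 47.8 CPM in CD8αβ cells (-4.02 ± 0.41, adjusted p = 0.00255). By the rule that named them, all 20 genes have the same direction in both libraries.

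**Figure D3:**
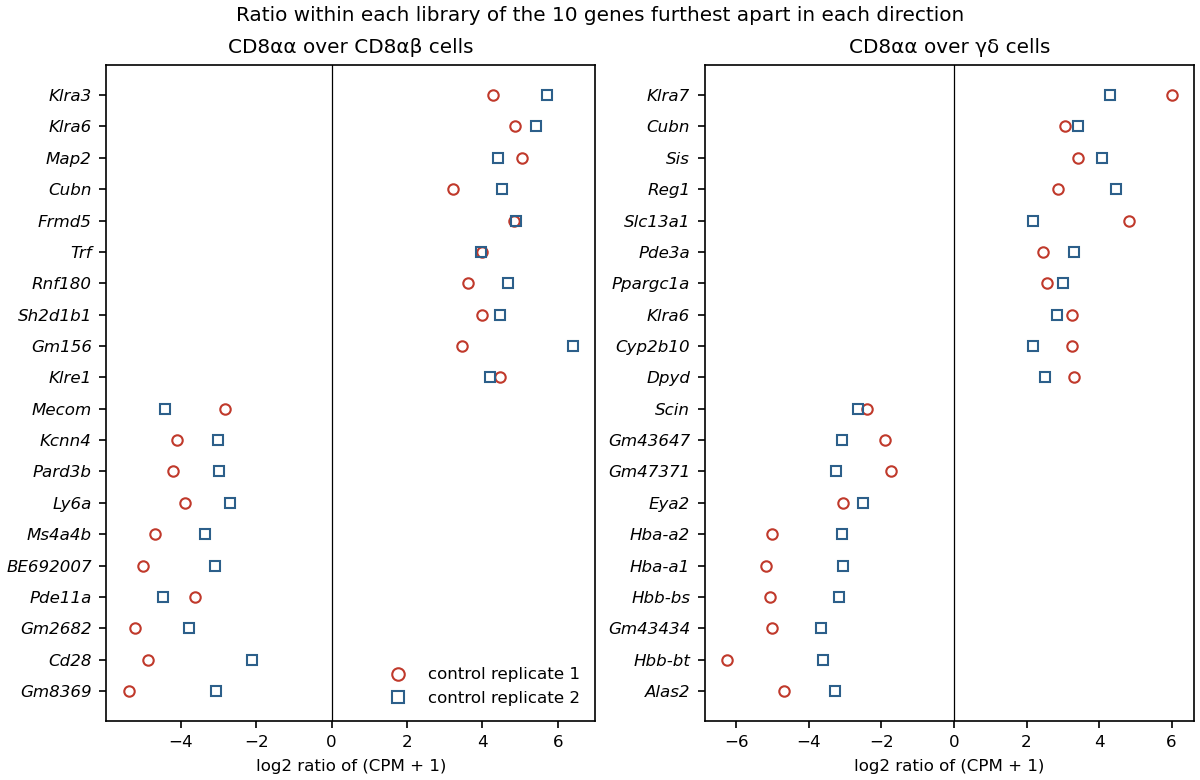
Ratio within each library, as log2 of (CPM + 1) in CD8αα cells over the compared class, of the 10 genes with the largest fitted change in each direction; red circles are control replicate 1 and blue squares control replicate 2. All points of a gene lie on the same side of 0 in both panels, and the hemoglobin genes and Alas2 make up 5 of the 10 lowest against γδ cells.

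Against γδ cells, CD8αα cells were higher in NK-type receptors and, by small amounts, in natural-lymphocyte adaptors and Gzma, and lower in Tcrg-C1, Thy1, Cd226 and Il7r. Of 9314 genes tested, 246 (2.64%) were higher and 87 (0.934%) lower in CD8αα cells, 3.58% in all, with a median of 0.01. Without the library block 28 were higher and 12 lower. Of 11 natural-lymphocyte genes 6 rose and none fell, with a median log2 fold change of 0.57. Fcer1g stood at 2112 and 1319 CPM in CD8αα cells, against 1484 and 736 CPM in γδ cells (0.70 ± 0.09, adjusted p = 0.000906). Ikzf2 stood at 1497 and 1666 CPM in CD8αα cells, against 1195 and 1206 CPM in γδ cells (0.43 ± 0.08, adjusted p = 0.0121). These rises depended on the γδ cells chosen. Without the library block 1 of the 11 genes was called, and 2 with DESeq2, where 35 of all tested genes were higher and 21 lower. With γδ cells of any Trac count, 535 and 420 cells with medians of 5453 and 6302.5 UMIs, Fcer1g was at 1966 and 1185 CPM in γδ cells. There 1 of the 11 genes was called, while 472 of all tested genes were higher in CD8αα cells.

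The NK-type receptors Klra7 and Klre1 were higher than in γδ cells under either choice. Klra7, a Ly49 receptor, stood at 62.9 and 63.8 CPM in CD8αα cells, against 0 and 2.26 CPM in γδ cells (5.62 ± 0.50, adjusted p = 2.92e-05), and was at 0.652 and 3.83 CPM in γδ cells of any Trac count. Klre1 stood at 255 and 230.4 CPM in CD8αα cells, against 40.5 and 40.8 CPM in γδ cells (2.60 ± 0.16, adjusted p = 1.80e-06), and at 73.1 and 70.1 CPM in γδ cells of any Trac count. Both libraries of CD8αα cells were above all of these γδ values, which is a description without the share of all tested genes that do so. Klrd1 rose less, at 1842 and 1159.9 CPM in CD8αα cells, against 1248 and 728 CPM in γδ cells (0.65 ± 0.08, adjusted p = 0.000880). Of 6 NK-receptor genes tested 3 rose, Klra5, Klra7 and Klrd1, and none fell (median 0.69). Lag3 stood at 158 and 156 CPM in CD8αα cells, against 79.7 and 60.0 CPM in γδ cells (adjusted p = 0.000622); with Cd81 and Lgals3 it made 3 of 12 checkpoint genes that rose, and none fell (median 0.25).

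Fewer genes were lower in CD8αα cells than in γδ cells. Tcrg-C1, a TCR γ constant gene, was at 123 and 264 CPM in CD8αα cells, against 783 and 641 CPM in γδ cells (-1.95 ± 0.23, adjusted p = 0.000425); against CD8αβ cells, at 71.2 and 129 CPM, it did not pass (0.85 ± 0.22, adjusted p = 0.0902). Of 8 conventional T cell genes 4 fell, Cd226, Ms4a4b, Ms4a6b and Thy1, and none rose (median -0.52). Cd226, the activating receptor DNAM-1, was at 50.3 and 149.97 CPM in CD8αα cells, against 229 and 386 CPM in γδ cells (-1.72 ± 0.18, adjusted p = 0.000108). Il7r was at 12.4 and 26.8 CPM in CD8αα cells, against 48.9 and 124.6 CPM in γδ cells (-2.08 ± 0.22, adjusted p = 0.000139). Of 21 transcription factors 4 fell, Bcl11b, Lef1, Satb1 and Tcf7, and 1 rose, Id2 (median -0.05). Ccr9, the receptor for the small-bowel chemokine CCL25, was the gene called of 15 homing genes, at 140 and 191 CPM in CD8αα cells, against 271 and 307 CPM in γδ cells (-0.79 ± 0.13, adjusted p = 0.00443). Scin, an actin-severing protein, was at 26.8 and 43.5 CPM in CD8αα cells, against 145 and 280 CPM in γδ cells (-2.53 ± 0.15, adjusted p = 1.22e-06).

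Effector genes differed by little between these classes. Gzma stood at 32934 and 22416 CPM in CD8αα cells, against 22567 and 17724 CPM in γδ cells (0.47 ± 0.04, adjusted p = 1.86e-05), and Ccl5 at 22312 and 15409 CPM, against 20041 and 13579 CPM (0.20 ± 0.03, adjusted p = 0.00308). With γδ cells of any Trac count these fitted changes were -0.06 and -0.31 and neither passed. Gzmb, Itgae and Cd160 passed in neither direction, with fitted changes of 0.16 ± 0.07, -0.07 ± 0.09 and 0.03 ± 0.13. Of 13 cytotoxic genes 3 rose (Gzma, Lamp1 and Nkg7) and none fell (median 0.16), or 5 and none without cells over 20000 UMIs. Without those cells 130 of all tested genes were higher than in γδ cells. Of 17 cytokine genes Ccl5 rose and Il7r fell (median -0.13). Among TCR signalling genes Cd7, Sh2d2a and Sla2 rose and Cd247 fell. Cd7 stood at 2440.5 and 1933 CPM in CD8αα cells, against 1765 and 917 CPM in γδ cells. In γδ cells of any Trac count Cd7 was at 2304 and 1472 CPM. Among 5 tested genes of the γδ TCR list Maf rose and Tcrg-C1 fell (median 0.29). None of 13 immediate early and none of 13 interferon genes was called.

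The furthest genes against γδ cells included those of other cell types. Sis, the enterocyte disaccharidase, stood at 326 and 609 CPM in CD8αα cells, against 29.4 and 35.1 CPM in γδ cells. Of the 1266 and 841 Sis UMIs in CD8αα cells, the cells over 20000 UMIs held 712, 372, 695 and 62. Of 15 epithelial markers tested 10 rose and none fell, but without cells over 20000 UMIs none rose and 6 fell. In that setting 130 of all tested genes were higher. Reg1, Slc13a1, Cyp2b10, Ppargc1a, Pde3a, Dpyd and Cubn were further high genes; Klra6 and Klra7 made up the 10. All 5 erythroid markers fell; against CD8αβ cells none of 4 was called, and all 4 fell without cells over 20000 UMIs. Hbb-bs stood at 498 and 1624 CPM in CD8αα cells, against 16768 and 14577 CPM in γδ cells. Hemoglobin made up over 1% of UMIs in 4 and 3 CD8αα cells and in 5 and 5 γδ cells, and without such cells the genes called lower numbered 55. Gm43434, Gm43647, Gm47371 and Eya2 were the other low genes.

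Within the class, most cells carried the natural-lymphocyte genes together. With every cell thinned to 2000 UMIs, 73.7% and 54.5% of CD8αα cells had a UMI of 3 or 4 of Fcer1g, Tyrobp, Ikzf2 and Cd244a, against 6.21% and 1.82% of CD8αβ cells and 48.9% and 29.7% of γδ cells. By their gate these γδ cells had no Trac UMI, while most CD8αα cells had one. In γδ cells of any Trac count Fcer1g was at 1966 and 1185 CPM, and these shares are not given for them. None of Cd5, Cd2, Thy1 and Cd6 was read in 94.2% and 89.3% of CD8αα cells, against 26.2% and 30.0% of CD8αβ cells and 88.7% and 85.2% of γδ cells. Thinned epithelial barcodes gave a Fcer1g UMI in 2.70% and 2.18% and a Thy1 UMI in 0% and 0.218%. The median depth before thinning is given above for each class.

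**Figure D4:**
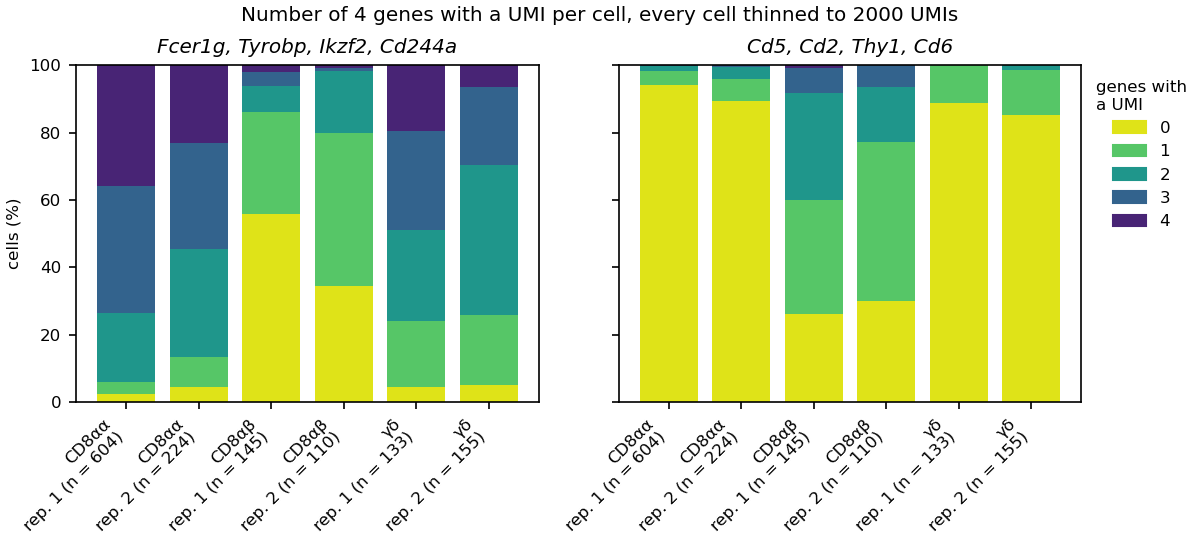
Percentage of cells of each class and library with a UMI of 0 to 4 of the natural-lymphocyte genes (left) or the conventional T cell genes (right), every cell thinned to 2000 UMIs, with the number of cells deep enough in parentheses. Cells with 3 or 4 natural-lymphocyte genes are 73.7% and 54.5% of CD8αα cells and 6.21% and 1.82% of CD8αβ cells; cells with none of the conventional genes are 94.2% and 89.3% of CD8αα cells.

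Cd5 was read in few CD8αα cells. Fcer1g or Tyrobp without Cd5 was read in 581 (88.3%) and 181 (68.6%) of them, Cd5 without either in 11 (1.67%) and 11 (4.17%), both in 4 and 1, and neither in 62 and 71. A test between the larger and the smaller set needed 20 cells a side and was not made. The 11 and 11 cells with Cd5 had Thy1 at 252 and 100.1 CPM and Gzma at 5298 and 6707 CPM, where the cells with Fcer1g or Tyrobp had Thy1 at 3.43 and 13.8 CPM and Gzma at 36060 and 29644 CPM. Ikzf2 was at 151 and 476 CPM in the Cd5 cells and at 1526 and 1735 CPM in the others. The cells with neither gene set were shallow, with medians of 2294.5 and 2304 UMIs; they kept Ikzf2 at 1360 and 1601 CPM and had Gzma at 2012 and 1651 CPM.

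The 109 and 82 CD8αα cells that passed the TCR gate by Trbc1 or Trbc2 alone also differed from the 549 and 182 with Trac. They had medians of 2537 and 2413.5 UMIs, against 5925 and 5708.5 UMIs with Trac. Fcer1g was at 629 and 333 CPM in the cells without Trac, against 2329 and 1669 CPM in those with it, and Gzma at 10961 and 4847 CPM, against 36147 and 28636 CPM. Ikzf2 was at 1624 and 1530 CPM without Trac and at 1478 and 1715 CPM with it. Depth and these levels moved together, and the part of depth in them was not tested.

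Segments of the TCR α and β chains were read in a minority of cells, and which were read differed between the libraries. Of 128 Trav genes any was read in 123 (18.7%) and 40 (15.2%) of CD8αα cells. Trav16n gave 125 of 201 Trav UMIs (62.2%) in replicate 1, in 66 CD8αα cells (10.0%), and none of 57 in replicate 2. In CD8αβ cells it was in 9 (6.16%) and 1 (0.893%) cells, and in γδ cells in 1 (0.629%) and 0. The CD8αα cells of replicate 1 with Trav16n had Trbc1 as 14.9% of their Trbc UMIs, against 38.1% in those without it. Trav12-2 was read in 0 and 12 CD8αα cells and in no CD8αβ or γδ cell. Trbv19 was read in 4 (0.608%) and 14 (5.30%) CD8αα cells and in 1 (0.685%) and 5 (4.46%) CD8αβ cells. Trbv12-2 was read in 21 and 6 CD8αα cells. With a library a side, none of these differences has a replicate check.

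The V segment Trav16n is near in sequence to its copies, and the last 250 bases of its exon, with those of the nearest copy, show how the counts could be shared. They lie on the plus strand of chromosome 14, Trav16n at chr14:53351372-53351621 and Trav16d-dv11 at chr14:53047572-53047821 (GENCODE M21, GRCm38), and capitals mark the bases at which they differ.
Trav16n: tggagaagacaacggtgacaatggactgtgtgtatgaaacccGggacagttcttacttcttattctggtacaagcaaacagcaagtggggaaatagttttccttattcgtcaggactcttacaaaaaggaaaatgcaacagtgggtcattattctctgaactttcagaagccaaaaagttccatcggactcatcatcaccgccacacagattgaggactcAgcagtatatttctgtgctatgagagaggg
Trav16d-dv11: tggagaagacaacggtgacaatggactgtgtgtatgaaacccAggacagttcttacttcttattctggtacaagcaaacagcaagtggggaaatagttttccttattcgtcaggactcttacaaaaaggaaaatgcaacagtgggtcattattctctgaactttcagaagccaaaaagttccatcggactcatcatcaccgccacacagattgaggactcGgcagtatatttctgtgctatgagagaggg
They differ at 2 of 250 bases, and Trav16 differs from Trav16n at 3. In CD8αα cells Trav16 had 10 and 4 UMIs and Trav16d-dv11 had 3 and 0, so the assignment among these copies is uncertain while the family as a whole was read mainly in replicate 1.

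Use of the constant genes varied too. Trbc1 made up 35.2% and 19.4% of Trbc UMIs in CD8αα cells, 39.0% and 31.1% in CD8αβ cells and 45.6% and 47.2% in γδ cells. Both Trbc1 and Trbc2 were read in 391 and 62 CD8αα cells. Trgv2, a γ chain segment, was read in 56.5% and 60.6% of CD8αα cells, 52.1% and 67.9% of CD8αβ cells and in 63 of 159 and 92 of 184 γδ cells. The 6 Trdv genes together had 1 and 13 UMIs in CD8αα cells, 0 and 1 in CD8αβ cells and 12 and 43 in γδ cells. The Trdv UMIs of replicate 2 lay in 10 CD8αα cells.

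Other genes differed between the libraries within the CD8αα cells. Of 4076 genes at 50 CPM or more in either library, 39 (0.957%) were at least 2-fold higher in replicate 2 and 34 (0.834%) at least 2-fold higher in replicate 1. Il31ra, a cytokine receptor chain, had 1 and 113 UMIs in CD8αα cells; it was at 1.17 and 56.3 CPM in CD8αβ cells and at 0 and 84.9 CPM in γδ cells, so it was high in replicate 2 in each class. Reg3b, an antimicrobial lectin of enterocytes, was at 11.9 and 904 CPM, and Rgs2, a regulator of G-protein signalling, at 75.8 and 18.8 CPM. Gm42418 was at 10809 and 32830 CPM in CD8αα cells, 10975 and 19882 CPM in CD8αβ cells and 10686 and 23549 CPM in γδ cells. Each library is a single sample, so these values are a description.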

How the data were processed

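The deposited files hold UMI counts per gene and barcode for 2 libraries, made by the authors with Cell Ranger 7.1.0 per the file headers; the submitters' processing notes name Cell Ranger 6.1 and 7.1.0 and GRCm38 (mm10). The annotation release and the rule that kept barcodes are not given in the sources used here. Counts were summed per class and library and tested with edgeR 4.0.16 (quasi-likelihood test, TMM, filterByExpr, library as a block, Benjamini-Hochberg adjustment over all tested genes), leaving the gate genes and mitochondrial genes untested. With 2 libraries a class, 1 residual degree of freedom per gene is left before spread is shared across genes. The library number pairs the classes because both come from the same suspension. The genes named were the 10 with the largest fitted change in each direction among those past 0.05, at 20 CPM or more and of the same direction in both libraries, beside the genes of the lists. Members and lists were chosen with earlier results of these data known. The fitting step was also run on simulated counts drawn with the dispersions it had estimated. Those counts had no library effect, outlier barcodes or gates, so that run does not cover them. Alternatives were DESeq2 1.42.0, other scalings, filters and gates, thinning to 2000 UMIs, and leaving out a library. Python 3.11.15 and R 4.3.3 were used. A planned comparison within the CD8αα cells was not tested, having under 20 cells a side. The TCR signalling list is given in part against γδ cells, since a result of it is not reported here.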

Additional observations from a re-analysis of the deposited data

How the results depend on the processing

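Counts of called genes moved with the setting more than directions did. Against CD8αβ cells, genes higher and lower numbered 391 and 285 with no filter on low counts, 85 and 50 with DESeq2, 64 and 13 under 10% mitochondrial UMIs, 309 and 174 with every cell thinned to 2000 UMIs, 3 and 1 in cells with no UMI of 7 other-lineage genes, 533 and 261 with 2 or more UMIs of Cd8b1, 58 and 46 for CD8αα cells with Trac and no Tcrg-C UMI, 641 and 519 in cells under 20000 UMIs, 21 and 3 for CD8αα cells with Trac, and 547 and 387 in cells under 1% epithelial UMIs. Without the replicate block, which the shared library gives, they numbered 70 and 33, and against γδ cells 28 and 12. Against γδ cells they were 499 and 145 with no filter, 35 and 21 with DESeq2, 63 and 55 thinned, and 4 and 15 for CD8αα cells with Trac and no Tcrg-C UMI. Those higher numbered 130 in cells under 20000 UMIs, 149 for CD8αα cells with Trac and 472 with γδ cells of any Trac count, and those lower 55 in cells under 1% hemoglobin UMIs. With no other-lineage UMI edgeR called 0 higher and 0 lower, with 40 of 972 genes at an unadjusted p under 0.05. The number of CD8αα cells was 33 with Trac and no Tcrg-C UMI and 108 with no other-lineage UMI. The cause of these shifts was not tested.

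Of 1839 gene results under alternatives 1520 kept direction and side of the threshold, 276 fell short of it, 12 newly passed it, 2 moved and 29 turned. Against CD8αβ cells the log2 changes that turned were Ccl5 -0.32, Itgae -0.081 and Nkg7 -0.36 for CD8αα cells with Trac and no Tcrg-C UMI, and Tcrg-C1 -0.13 with no other-lineage UMI. Against γδ cells, with 2 or more Trdc UMIs, they were Ccl5 -0.0081, Cd160 -0.13 and Gzmb -0.016. With Trac and no Tcrg-C UMI they were Ccl5 -0.58, Gzma -0.10, Gzmb -0.31, Il7r 0.15, Klrd1 -0.012, Lat2 -0.17, Lef1 0.28, Ms4a4b 0.63, Ms4a6b 0.83, Nkg7 -0.30 and Xcl1 -0.39. With γδ cells of any Trac count they were Ccl5 -0.31, Cd160 -0.22, Gzma -0.062, Gzmb -0.23 and Nkg7 -0.11. With no other-lineage UMI they were Cd160 -0.87, Itgae 0.19 and Xcl1 -0.40. Itgae was 0.13 thinned and 0.035 under 20000 UMIs, and Reg1 was -0.21 under 1% epithelial UMIs. Leaving out a library left 1 sample a class, so those are ratios with no test.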
